A study of Homo sapiens with 9 samples.

Results

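IFITM1, IFITM2 and IFITM3 are 3 of the 25540 gene symbols in an RNA sequencing study of CAL-1 cells, a human line derived from a blastic plasmacytoid dendritic cell neoplasm (BPDCN). They were taken by name, as the interferon-induced transmembrane genes that act against viruses, and all 3 passed the filter on low values (a mean of at least 1 TPM), as did 10939 genes in all. Their values in all 9 libraries were known when they were chosen. Their levels and differences are therefore given here as a description, without p-values.

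The 9 libraries form 3 groups of 3, all of CAL-1: controls labelled NTC, whose genotype is given as WT, and 2 groups labelled KHSRPi#1 and KHSRPi#2, in which KHSRP was knocked down by CRISPR interference. What the numbers 1 and 2 stand for, the repressor construct and the guides' position in KHSRP were not given in the sources used here, and neither was a time after knockdown. KHSRP encodes a KH-domain protein that binds AU-rich elements in mRNAs and speeds their decay. Its own mRNA averaged 237 TPM in the controls and fell to 35.2 TPM over the 6 knockdown libraries (limma adjusted p = 1.75e-09). TPM is a length-corrected share of a library's transcripts with the same sum in every library, so levels of different genes can be set side by side, but the depth in reads is unknown.

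IFITM proteins are small membrane proteins that block the fusion of enveloped viruses with the membranes of the cell. IFITM1 sits mainly at the cell surface, while IFITM2 and IFITM3 are taken up by endocytosis and act mainly in endosomes and lysosomes. Interferons switch the genes on through response elements in their promoters, and many cells also hold a basal level. Plasmacytoid dendritic cells, the lineage from which BPDCN arises, are the main producers of type I interferon.

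The 3 genes lie together near the short-arm end of chromosome 11. In GENCODE 29 on hg38, IFITM2 (ENSG00000185201.16) spans 307631 to 315272 on the plus strand and IFITM1 (ENSG00000185885.15) spans 313506 to 315272 on the same strand. IFITM3 (ENSG00000142089.15) spans 319669 to 327537 on the minus strand. The promoters of IFITM1 and IFITM3 were in the RefSeq promoter table used here (GRCh38.p14), and IFITM2's was not. They were searched on both strands for GAAANNGAAA, the core of the interferon-stimulated response element. The last 90 bases before the annotated start and the first 10 after it are shown because they hold every match, with the matches in capitals, at chr11:313950-314049 (plus strand) and chr11:320851-320950 (minus strand):
IFITM1: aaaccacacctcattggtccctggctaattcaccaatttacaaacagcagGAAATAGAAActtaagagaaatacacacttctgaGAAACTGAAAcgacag
IFITM3: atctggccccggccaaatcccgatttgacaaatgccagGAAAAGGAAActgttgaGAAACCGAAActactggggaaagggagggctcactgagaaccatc

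Each of these promoters held 2 matches. In IFITM1 they begin 40 and 6 bases before the start, and in IFITM3 52 and 35 bases before it, and no match overlaps another. Of all 35116 promoters of 300 bases in that table, 3.57% held at least 1 match and 0.259% held 2 or more. Among the 32 promoters found for a list of 40 interferon-stimulated genes, 20 held a match and 10 held 2 or more. A match is a description of the letters and does not show that a factor binds there.

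The transcripts are short and in part alike. The GENCODE transcripts that correspond to the RefSeq mRNAs have 855 bases for IFITM1, 659 for IFITM2 and 808 for IFITM3. Of all windows of 50 bases, 12.2% of those in IFITM1, 8.36% in IFITM2 and 13.0% in IFITM3 also occur in another of the 3 transcripts. For windows of 100 bases the shares are 5.56%, 0% and 5.92%. The read length and the handling of reads that match several genes were not given in the sources used here. How far reads of the 3 genes were divided between them is therefore uncertain. The span of another annotated coding transcript of IFITM2, IFITM2-201, also covers IFITM1 to its end. IFITM2-201 was not among the transcripts compared by windows, and whether it shares exons with IFITM1 was not checked. The antisense genes AC136475.1 and AC136475.4 overlap IFITM3 and the antisense gene AC136475.2 overlaps IFITM2. The use of strand in counting was not given either.

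The 3' UTRs have 159 bases in IFITM1, 230 in IFITM2 and 169 in IFITM3, against a median of 1085 bases over 9795 tested genes. None of the 3 holds the letters ATTTA, the core of an AU-rich element, which 69.7% of those genes have in the 3' UTR. For genes besides these 3, the longest coding transcript annotated as principal was taken. The share was not adjusted for UTR length, so short and long UTRs are not compared on equal terms. The lack of a match says only that these letters are not in these annotated UTRs.

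Several facts of the whole series bear on the values. The replicate 3 library of each group stood apart from replicates 1 and 2 on the first principal component (38.3% of the variance), though the labels give 1 shared batch. The source of that separation was not tested. Of 9 markers of plasmacytoid dendritic cells, 7 had a mean of at least 1 TPM; IL3RA was listed at 0 in every library and LILRA4 was at 0.881 TPM on average. Red cell, T cell and fibroblast marker lists held no gene at 1 TPM. Of the other lists, CD79A (1.18 TPM) was alone among 4 B cell markers and LYZ (62.1 TPM) among 5 monocyte markers in reaching that level. NCAM1, NKG7 and GNLY did so among 5 NK cell markers.

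The order of the levels was the same in all 9 libraries: IFITM2 was highest, IFITM1 next and IFITM3 lowest, and the ranges of the 3 genes did not overlap. IFITM2 ran from 72.2 to 127 TPM, IFITM1 from 9.44 to 25.5 TPM and IFITM3 from 3.69 to 7.89 TPM. IFITM2 made up between 77.7% and 85.6% of the summed level of the 3 genes. Its mean over the 9 libraries, 89.6 TPM, was above that of all but 1 (ADAR, an RNA editing enzyme) of the 40 listed interferon-stimulated genes. Of the other family members, IFITM5, known from bone-forming cells, averaged 0.258 TPM and IFITM10 averaged 0.0561 TPM, both below the level for testing.

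IFITM1 was at 13.0, 16.0 and 25.5 TPM in replicates 1, 2 and 3 of the controls. It was at 9.69, 9.81 and 21.4 TPM in KHSRPi#1, and at 9.44, 9.92 and 21.4 TPM in KHSRPi#2. The group means were 18.2 ± 6.51, 13.6 ± 6.70 and 13.6 ± 6.79 TPM (SD, n = 3 each). The knockdown and control groups overlapped, as the replicate 3 libraries of both knockdown groups lay above replicates 1 and 2 of the controls. Within replicates 1 and 2 all 4 knockdown libraries lay below both controls, and in replicate 3 both knockdown libraries lay below the control. Set against the control of the same replicate number, the 6 knockdown libraries held between 61.4% and 84.1% of its IFITM1 level. Libraries of the same number were not shown to be pairs, so this range and those of IFITM2 and IFITM3 depend on the numbering.

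IFITM2 was at 91.2, 87.7 and 127 TPM in the controls. It was at 73.6, 75.2 and 102 TPM in KHSRPi#1, and at 77.9, 72.2 and 99.1 TPM in KHSRPi#2. The group means were 102 ± 21.7, 83.6 ± 16.0 and 83.1 ± 14.2 TPM (SD, n = 3 each). Here too replicate 3 was the highest library of each group and the groups overlapped, with every knockdown library below the control of its own replicate number. The knockdown libraries held between 78.1% and 85.7% of that control's IFITM2 level, a narrower range than for IFITM1.

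IFITM3 was at 3.72, 5.91 and 7.89 TPM in the controls. It was at 4.74, 6.77 and 6.94 TPM in KHSRPi#1, and at 3.69, 5.61 and 7.00 TPM in KHSRPi#2. The group means were 5.84 ± 2.08, 6.15 ± 1.22 and 5.43 ± 1.66 TPM (SD, n = 3 each). The groups overlapped throughout: 4 of the 6 knockdown libraries were below the control of their replicate number and 2, both of KHSRPi#1, were above it, at 88.0% to 128% of it. In each group replicate 1 held the least IFITM3 and replicate 3 the most.

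**Figure D1:**
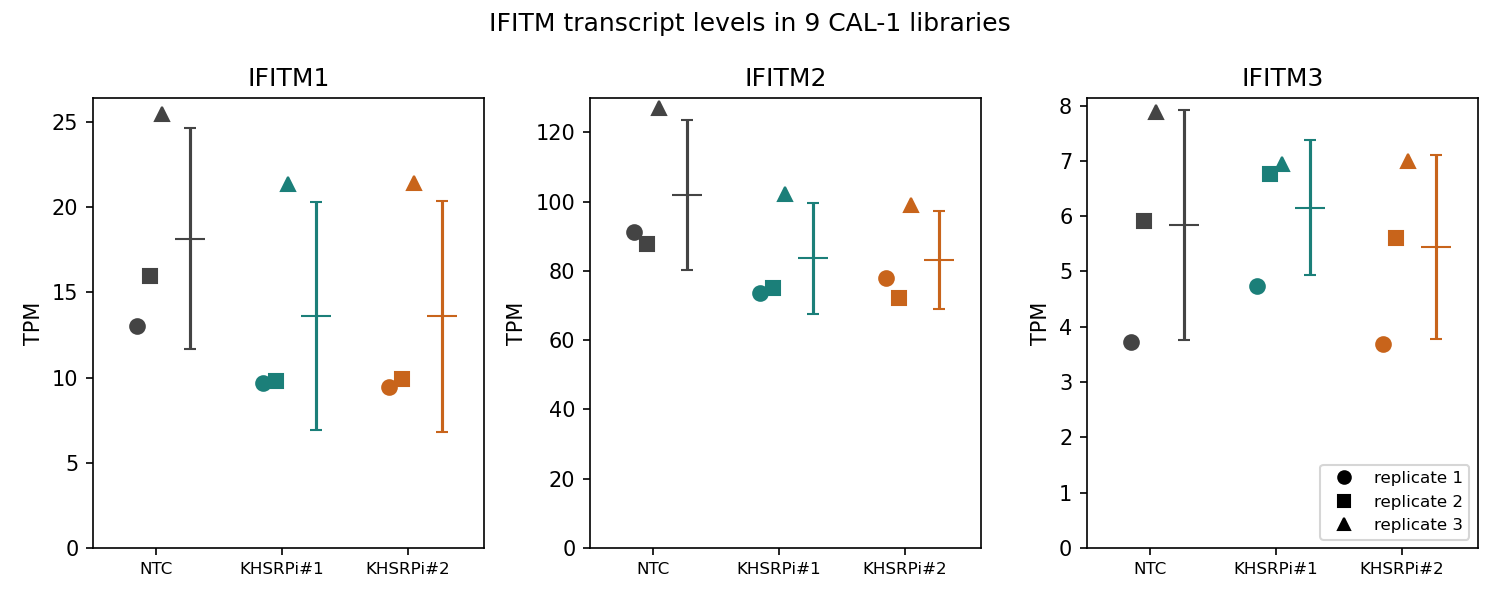
TPM of IFITM1, IFITM2 and IFITM3 (vertical axes, from 0) in each library, by group; circles, squares and triangles are replicates 1, 2 and 3, and the bar beside them is the mean with its SD (n = 3). The triangles are the highest point of every group, and for IFITM1 and IFITM2 each knockdown symbol lies below the control symbol of the same shape.

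Expressed on the log2(TPM + 1) scale, the knockdown differences of IFITM1 and IFITM2 were nearly the same in both knockdown groups. IFITM1 differed from control by -0.43 in KHSRPi#1 and by -0.43 in KHSRPi#2, and IFITM2 by -0.28 and -0.29. IFITM3 differed by 0.10 and -0.07. Between the 2 knockdown groups IFITM1 differed by -0.00 (95% interval -0.80 to 0.80), IFITM2 by -0.01 (-0.38 to 0.37) and IFITM3 by -0.17 (-0.72 to 0.38). The 2 knockdown groups were compared with the same 3 controls, so their differences share those controls.

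The size of the error depends on how the replicate 3 libraries are treated. In the limma fit of the 3 groups alone, the mean difference over both knockdown groups was -0.43 for IFITM1 (SE 0.31, 95% interval -1.12 to 0.26), -0.28 for IFITM2 (SE 0.15, -0.61 to 0.04) and 0.01 for IFITM3 (SE 0.21, -0.46 to 0.48). With a term for replicate 3 the differences were the same and the SE fell to 0.07 for IFITM1, 0.04 for IFITM2 and 0.15 for IFITM3. The 95% intervals were then -0.59 to -0.27, -0.37 to -0.20 and -0.31 to 0.33. Each group holds 1 library of replicate 3, so the term takes a difference shared by the groups out of the spread. Within replicates 1 and 2 alone the mean differences were -0.53 for IFITM1, -0.26 for IFITM2 and 0.09 for IFITM3. In replicate 3, where each group has 1 library, IFITM1 differed by -0.24 in both knockdown groups and IFITM2 by -0.31 and -0.35. IFITM3 differed there by -0.16 and -0.15.

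**Figure D2:**
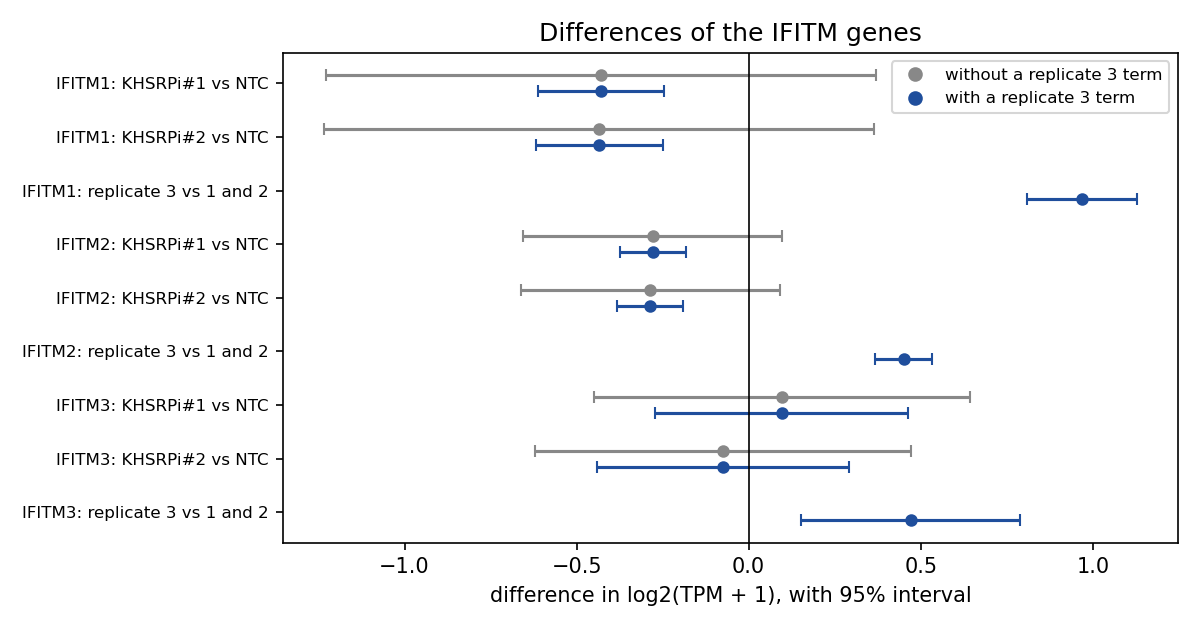
Differences in log2(TPM + 1) (horizontal axis) with 95% intervals from limma for each IFITM gene, in each knockdown group against control and for replicate 3 against replicates 1 and 2. With a term for replicate 3 (blue) the intervals of IFITM1 and IFITM2 lie below 0 in both knockdown groups and those of IFITM3 span 0. Without it (grey) all of these knockdown intervals span 0. The genes were chosen with these values known, so the intervals are a description and not a test.

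Without the term, 0 of the 3 genes were among those called in the mean of both knockdown groups against control (limma adjusted p under 0.05), where 0.0823% of the 10939 tested genes were called in either direction. None of the 3 had all 6 knockdown libraries below all 3 controls, as 1.57% of tested genes had. With the term 1.76% of tested genes were called, 1.27% higher and 0.485% lower, and IFITM1 and IFITM2 were among the lower ones. They were also called lower in KHSRPi#1 alone (0.238% of all tested) and in KHSRPi#2 alone (0.201%). The genes were chosen with these values known, so nothing is read from those counts. Genes with all 4 knockdown libraries of replicates 1 and 2 below both controls made up 8.96% of all tested, and IFITM1 and IFITM2 were among them. Genes with both knockdown libraries below the control in each of the 3 replicate numbers made up 7.35%, and again held IFITM1 and IFITM2.

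When the fit with the term was repeated without 1 library at a time, the mean difference of IFITM1 ran from -0.53 to -0.32, and IFITM1 was among the called genes in 9 of 9 fits. IFITM2 ran from -0.31 to -0.26 and was among them in 8 of 9, the exception being the fit without NTC replicate 3. Over all tested genes these fits called between 33 and 202, and the fit that lost IFITM2 was the one with 33. For single knockdown groups, with 7 to 68 genes called in all for KHSRPi#1 and 26 to 138 for KHSRPi#2, the calls were lost more often: IFITM1 was called in 0 of 9 such fits for KHSRPi#1 and 2 of 9 for KHSRPi#2, and IFITM2 in 4 and 6. IFITM1 was called for KHSRPi#2 only without NTC replicate 2 or NTC replicate 3. As above, nothing is read from these counts.

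The difference between replicate 3 and replicates 1 and 2 was larger than that of the knockdown for each of the 3 genes. IFITM1 in replicate 3 was 1.76 times its mean in replicates 1 and 2 in the controls, 2.19 times in KHSRPi#1 and 2.22 times in KHSRPi#2. For IFITM2 the ratios were 1.42, 1.37 and 1.32, and for IFITM3 they were 1.64, 1.21 and 1.51. On the log2(TPM + 1) scale, adjusted for group, replicate 3 was higher by 0.97 for IFITM1 (SE 0.07), 0.45 for IFITM2 (SE 0.04) and 0.47 for IFITM3 (SE 0.15). The IFITM1 difference exceeded that of 99.9% of tested genes. All 3 genes lay higher in the 3 libraries of replicate 3 than in the 6 others, which held for 16.5% of all tested genes, while 26% were highest in replicate 3 within each group. All 3 were among the 18.7% of tested genes called higher in replicate 3, and 11.6% were called lower. Nothing is read from these counts either.

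The balance within the family moved with the replicate 3 libraries as well. The ratio of IFITM2 to IFITM1 was between 4.62 and 4.98 in the 3 libraries of replicate 3 and between 5.49 and 8.25 in the other 6. Within replicates 1 and 2 the ratio was 7.01 and 5.49 in the controls, and the 4 knockdown libraries, at 7.28 to 8.25, were all above both. In replicate 3 the order was the reverse, with 4.98 in the control, 4.78 in KHSRPi#1 and 4.62 in KHSRPi#2. Marker genes moved in both directions between replicate 3 and the others. Of the 7 tested plasmacytoid dendritic cell markers, 1 was called higher in replicate 3, the transcription factor IRF8 (2371 TPM in replicates 1 and 2 and 2804 TPM in replicate 3), and 4 were called lower (CLEC4C, NRP1, SPIB and GZMB). TCF4 and TCL1A were not called. Over all tested genes 18.7% were called higher in replicate 3 and 11.6% lower. GZMB, which encodes granzyme B, averaged 80.6 TPM in replicates 1 and 2 and 46.9 TPM in replicate 3. The markers of other cell types were divided too: NCAM1 (0.21), GNLY (0.41) and CD79A (0.42) were called higher on the log2 scale, as the IFITM genes were, and LYZ was called lower (-0.92). The monocyte list summed to between 36.9 and 42.0 TPM in replicate 3 and between 59.4 and 91.0 TPM in the others, with FCN1 listed at 0 throughout. With the knockdown, in the fit with the term, 3 of the 7 plasmacytoid dendritic cell markers (GZMB, CLEC4C and TCL1A) were called higher and none lower. That fit called 1.27% of all tested genes higher and 0.485% lower. None of the 7 was called without the term. GZMB was at 41.2 ± 10.6 TPM in the controls (n = 3) and 83.5 ± 21.6 TPM in the 6 knockdown libraries (log2 difference 0.99, limma adjusted p = 8.56e-08 with the term and 0.310 without it). No marker of another cell type was called in that comparison. The part of any of these markers in the IFITM values was not tested. In RNA of whole cultures, fewer cells with a transcript and less of it per cell cannot be told apart.

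**Figure D3:**
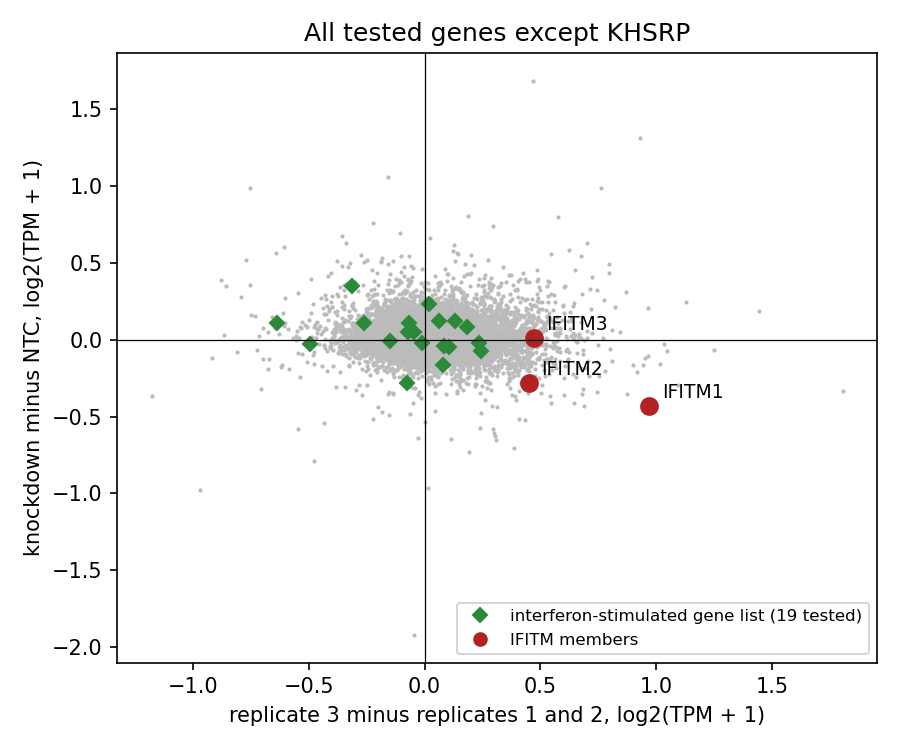
Each point is a tested gene, KHSRP left out: the difference of replicate 3 from replicates 1 and 2 (horizontal) against the mean knockdown difference (vertical), both in log2(TPM + 1) from the fit with a term for replicate 3. IFITM1 lies at 0.97 and -0.43, at the lower right of the cloud, IFITM2 at 0.45 and -0.28 and IFITM3 at 0.47 and 0.01, while the 19 tested interferon-stimulated genes (diamonds) lie between -0.28 (IFIH1) and 0.35 (IRF7) on the vertical axis.

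The interferon system around the family was compared next, in lists chosen by known function. All 21 interferon genes were in the table: 18 were listed at 0 in every library, and the list, with IFNB1, IFNL1 and IFNL2, summed to 0.141 TPM at most. A listed 0 in a table without counts does not show that a transcript was absent. All 12 listed receptors and signalling genes were tested. The receptor chain IFNGR1 was the most abundant of them (82.9 TPM), followed by the kinase TYK2 (44.9 TPM). None of the 12 was called in the knockdown with or without the term, and their median difference was 0.03 against 0.02 for all tested genes.

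Of the 40 interferon-stimulated genes 19 were tested, and the other 21 averaged below 1 TPM, with MX1 and CMPK2 listed at 0 in every library. The most abundant were ADAR (192 TPM) and TRIM22, an antiviral ubiquitin ligase (47.8 TPM). In the knockdown 9 of the 19 had a negative difference, and their median was 0.05. The lowest was the RNA sensor IFIH1 at -0.28, the same as IFITM2, followed by PARP14 at -0.16, both not called, while IFITM1 was at -0.43. The log2(TPM + 1) scale understates the change of IFIH1, a low gene. Its mean fell from 1.65 TPM (NTC, n = 3) to 1.17 TPM (both knockdown groups, n = 6). For IFITM1 these means were 18.2 and 13.6 TPM, and for IFITM2 102 and 83.4 TPM. As a share of the control mean, IFIH1 thus fell by at least as much as either. None of the 19 was called without the term. With it IRF7, the regulator of type I interferon genes, rose with the knockdown from 13.6 ± 2.44 TPM (n = 3) to 17.5 ± 1.89 TPM (n = 6), by 0.35 on the log2 scale (SE 0.06, limma adjusted p = 0.012). Without the term the adjusted p of IRF7 was 0.512, and with the term but without NTC replicate 3 it was 0.132.

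**Figure D4:**
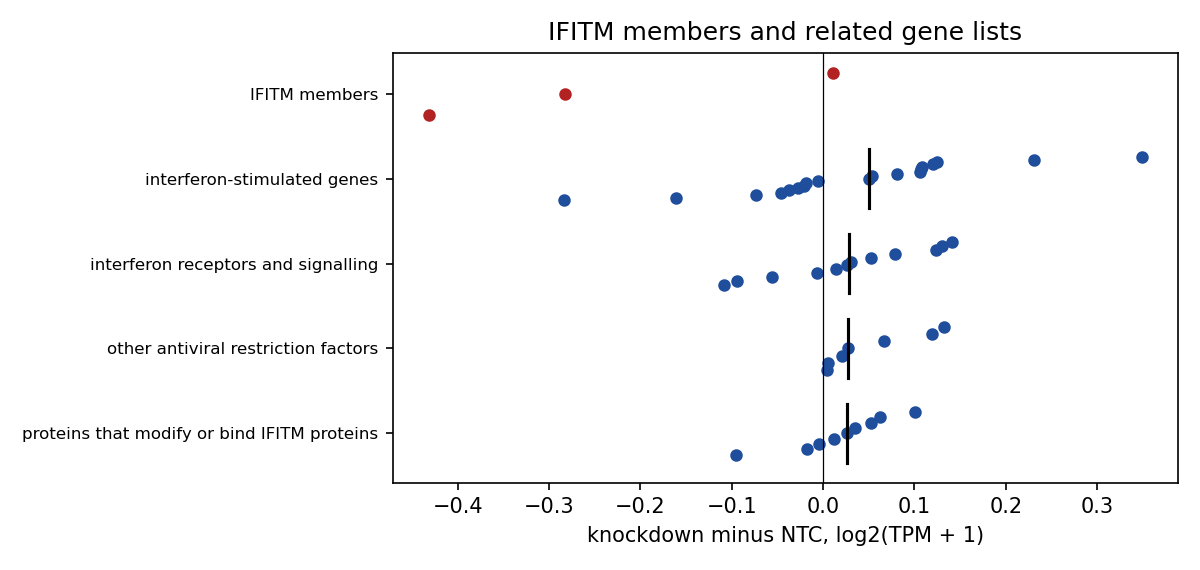
Mean knockdown difference in log2(TPM + 1) (horizontal axis) of the 3 IFITM genes (red) and of the tested genes of 4 related lists (blue), each point a gene, stacked by value; vertical bars are the medians of the lists. The medians of the 4 lists lie between 0.03 and 0.05, and IFITM1 and IFITM2 lie at -0.43 and -0.28. The latter is level with the lowest interferon-stimulated gene, IFIH1, a low gene (1.33 TPM on average) whose change this scale understates.

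Between the replicate 3 libraries and the others the interferon-stimulated genes were divided as well. Of the 19, only USP18, which removes ISG15 from proteins, was called higher (23.9 to 28.5 TPM), and IRF7, TRIM22, IFIT3 and SAMD9L were called lower. Over all tested genes 18.7% were called higher in replicate 3 and 11.6% lower, and a difference from these shares was not tested. The median difference of the 19 genes was -0.01 against 0.03 for all tested genes. IRF7 was at 17.3 TPM in replicates 1 and 2 and 13.8 TPM in replicate 3, and SAMD9L, a growth-restraining antiviral factor, at 5.93 and 3.46 TPM. IFIT3 was not called without NTC replicate 3 or KHSRPi#1 replicate 3, nor TRIM22 without any 1 library of replicate 3. Of the signalling genes IRF2 and STAT2 were called higher in replicate 3, at 22.3 and 30.6 TPM for IRF2 and 20.4 and 24.7 TPM for STAT2.

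Among other restriction factors the most abundant were BST2 (tetherin, which holds budding virus at the cell surface) at 221 TPM and SAMHD1, which depletes nucleotides, at 201 TPM. Of the 9 listed, 7 were tested, and LY6E and CH25H were listed at 0. None of the 7 was called in the knockdown. In the mean of both knockdown groups all 7 had a positive difference, with a median of 0.03 against 0.02 for all tested genes. In KHSRPi#1 alone 3 of the 7 were negative, and in KHSRPi#2 alone 0 were. In replicate 3 NCOA7, SERINC3 and TRIM5 were called higher and SAMHD1 lower, where 18.7% and 11.6% of all tested genes were.

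The proteins that modify or bind IFITM proteins were all measured. The adaptor subunit AP2M1, which takes up IFITM3 from the surface, averaged 194 TPM, and the membrane protease ZMPSTE24, which works with IFITM proteins against viruses, 93.2 TPM. CD81, a tetraspanin that associates with IFITM1, averaged 81.5 TPM, and the IFITM3 ubiquitin ligase NEDD4 6.82 TPM. None of the 9 was called in the knockdown, with a median difference of 0.03. In replicate 3 NEDD4 was called higher and AP2M1 and ZMPSTE24 lower, where 18.7% and 11.6% of all tested genes were. ZMPSTE24 was at 100.3 TPM in replicates 1 and 2 and 79.1 TPM in replicate 3.

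Tested genes with a promoter match to GAAANNGAAA included called genes of both directions. In the fit with the term, the median knockdown difference of the 331 tested genes with a match was 0.02, as was that of the 8005 tested genes in the promoter table without one. Of the 331, 7 were called higher and 4 lower, and of the 8005, 90 and 36. The 331 include IFITM1 and IFITM3 themselves, and IFITM1 is among the 4. The difference between these shares was not tested. Between replicate 3 and the others, 59 of the 331, with IFITM1 and IFITM3 among them, were called higher and 45 lower. Of the 8005, 1521 and 956 were, and the medians were 0.03 in both sets.

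Within 100 kb of the 3 genes, 10 of 21 annotated neighbours were in the table and 5 were tested. The nearest of these, PGGHG, encoding a glucosidase of hydroxylysine-linked sugars, averaged 122 TPM over the controls and 98.0 TPM over the knockdown libraries. It was at 90.7 TPM in replicates 1 and 2 against 137 TPM in replicate 3. Its difference of 0.60 in replicate 3 (SE 0.12) was called (limma adjusted p = 0.00318), and was 0.40 without KHSRPi#1 replicate 3. Its knockdown difference of -0.36 was not called (limma adjusted p = 0.159 with the term and 0.740 without it). SIRT3, a mitochondrial deacylase, was also called higher in replicate 3 and the proteasome subunit PSMD13 lower, both not so without KHSRPi#1 replicate 3. Such calls were made for 18.7% (higher) and 11.6% (lower) of all tested genes. RIC8A and the innate immune sensor NLRP6 were not called in either comparison. B4GALNT4 and PKP3, on the other side of the family, were listed at 0, and SIGIRR and ANO9 averaged 0.0223 and 0.00508 TPM.

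Over the 9 libraries IFITM1 and IFITM2 varied together, with a Pearson r of 0.946 and a Spearman rho of 0.817 on log2(TPM + 1). IFITM3 had an r of 0.667 with IFITM1 and 0.535 with IFITM2. By rank IFITM3 lay as close to IFITM1 as IFITM2 did, with a rho of 0.833, and its rho with IFITM2 was 0.617. The libraries share the replicate 3 difference, so the 6 libraries of replicates 1 and 2 were also taken alone. There r was 0.854 for IFITM1 and IFITM2, 0.076 for IFITM1 and IFITM3, and -0.340 for IFITM2 and IFITM3. The differences between the control and knockdown groups were not removed, so they are part of these values. The rho in those 6 libraries was 0.429 for IFITM1 and IFITM2, the same 0.429 for IFITM1 and IFITM3, and -0.257 for IFITM2 and IFITM3, so the ranks did not set the first pair apart.

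Over the 9 libraries, which share the replicate 3 difference, other genes followed IFITM1 and IFITM2 more closely than these followed each other. The genes named here were picked as the highest, so their r only describes these libraries. By Pearson r over the 9 libraries, the 5 genes most like IFITM1 were TNFAIP3 (0.977), IL1B (0.975), VKORC1 (0.975), NFIL3 (0.974) and RHOF (0.973), and IFITM2 ranked 60 of 10938. The 5 most like IFITM2 were TUBA4A (0.989), ACTN1 (0.984), PLAUR (0.983), ANXA6 (0.982) and GNAS (0.979), with IFITM1 at rank 54. In replicates 1 and 2 alone, where the group differences remain, r ran from 0.882 (NFIL3) to 0.961 (VKORC1) for the 5 most like IFITM1. For the 5 most like IFITM2 it ran there from 0.899 (ANXA6) to 0.947 (TUBA4A). An r above 0.9 with IFITM1 was reached by 2.32% of genes and with IFITM2 by 2.09%. For IFITM3 that share was 0.101%, and the 5 most like it were YY2 (0.948), SHF (0.936), SIAH2 (0.926), RBM26-AS1 (0.919) and LOC284454 (0.916). IL1B, the gene of the cytokine interleukin-1 beta, was at 7.04 TPM in replicates 1 and 2 and 13.7 TPM in replicate 3. Its mean was 11.1 TPM over the controls and 8.37 TPM over the knockdown libraries.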

How the data were processed

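Values were the authors' TPM by gene symbol in 1 deposited table, each column summing to 1000000. Per the submitters' processing notes, the genome build was hg38. The aligner's version, counting tool, annotation and strandedness were not given in the sources used here. Columns were matched to samples by the label that holds their name. The members and gene lists were chosen with earlier results of these data known. Nothing in the labels says that replicates were separate cultures, so the p-values reflect spread among libraries that may be technical. Every library differed from the others in its values. Depth in reads is unknown, so the replicates alone set the precision.

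Genes with a mean of at least 1 TPM (10939) were fitted on log2(TPM + 1) with limma 3.58.1 in R 4.3.3 (intensity trend, two-sided), with the Benjamini-Hochberg adjustment over all tested genes; this scale understates changes of low genes. The fit held the 3 groups; a second added a term for replicate 3. The fit without the term was tested on simulated data that held no replicate 3 difference, and the fit with the term was not tested in this way. Named were the members, IFITM5, IFITM10, KHSRP, up to 4 called genes of each list or else its 2 most abundant, the 5 genes most like each member, and neighbours within 100 kb; replicate 3 calls, the other signalling and IFITM-binding genes, IFIH1, PARP14 and marker genes were named after their values were seen. Alternatives were pseudocounts of 0.1 and 5, no filter, a mean of 5 TPM, 2 rescalings, a replicate block, the replicate 3 term, replicates 1 and 2 alone, only the groups compared, and leaving out each library. Other settings within the fit with the term, and leaving out libraries for correlations, were added after seeing the data.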

Additional observations from a re-analysis of the deposited data

How the results depend on the processing

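IFITM1 and IFITM2 kept a negative knockdown difference in every alternative run, with and without the term for replicate 3. That of IFITM3, 0.01, was -0.01 under median-ratio rescaling and -0.03 under quantile normalization. Without the term, leaving out 1 library unbalances replicate 3 between the groups: the mean difference then ran from -0.63 to -0.17 for IFITM1, -0.38 to -0.12 for IFITM2 and -0.23 to 0.22 for IFITM3. The replicate 3 difference of IFITM1 was 0.78 with a pseudocount of 5.

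Counts of called genes moved more. For the mean of both knockdown groups 9 genes were called, 192 with the term for replicate 3 and 3 to 7 without any 1 library. For KHSRPi#1 the count was 6, 74 with the term, 2 in a fit of only the groups compared and 2 to 4 without 1 library. For KHSRPi#2 it was 6, 88 with the term, 3 with only the groups compared and 3 to 6 without 1 library. Between the knockdown groups limma called 0, with 115 at an unadjusted p under 0.05; it called 1 with no filter, with only the groups compared, with replicates 1 and 2 alone, and 0 to 1 without 1 library. Between replicate 3 and the others 3314 were called, and 1802 to 3328 without 1 library; the lowest counts, 1802, 1970 and 1970, came without a replicate 3 library. The cause of these moves was not tested.

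After removing the replicate 3 mean, r was 0.805 for IFITM1 and IFITM2, 0.126 for IFITM1 and IFITM3 and -0.129 for IFITM2 and IFITM3. The differences between the control and knockdown groups were left in these values.

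Replicate numbers did not meet the rule for pairing: deviations of same-numbered libraries correlated from 0.040 to 0.628, and not every library correlated best with its own number. A replicate block called 152 genes for the mean, 54 for KHSRPi#1, 91 for KHSRPi#2 and 1 between them, and left the differences of the 3 IFITM genes as they were.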
